A study of Arabidopsis thaliana with 44 samples.

Results

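Nitrate uptake and assimilation in Arabidopsis were examined through 8 genes on the Agilent 22 K microarray, which carries 1 probe per gene. They were picked by gene identifier, and all 8 had a probe among the 21500 gene probes. The genes were the nitrate transporters NRT2.1 (AT1G08090) and NRT2.2 (AT1G08100), the nitrate reductases NIA1 (AT1G77760) and NIA2 (AT1G37130), the nitrite reductase NIR1 (AT2G15620), the glutamine synthetases GLN2 (AT5G35630) and GLN1.1 (AT5G37600), and the glutamate synthase GLU1 (AT5G04140). The study compared microarray platforms and MPSS on shared RNA samples of wild type tissues, floral mutants and leaves treated with salicylic acid. Of these, 5 wild type tissues were run on Agilent microarrays. These were actively growing callus, silique collected between 24 and 48 hours after fertilization, inflorescence with immature buds of mixed stages, untreated root of 21 days and untreated leaf of 21 days. Each kind of microarray was run as 2 technical replicates of 1 RNA sample, so every p-value below was set against technical spread and not against the spread between plants.

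By their labels, 8 self-self microarrays carried 1 RNA in the red and green channels, 2 each for callus, inflorescence, root and leaf; root microarray 1 went against its label, as described below. The 4 other microarrays each carried a pair of tissues, 2 with root in red and leaf in green and 2 with silique in red and inflorescence in green. Dyes were not exchanged between those 2 microarrays of a pair, so gene-specific dye effects cannot be told apart from tissue differences on them. The nitrogen supply of the plants and of the callus medium is not given in the sources used here.

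Nitrate enters the root through transporters of the NRT1 and NRT2 families, of which the NRT2 proteins act at low external nitrate. Nitrate reductase in the cytosol forms nitrite, and nitrite reductase in the plastid forms ammonium with electrons from ferredoxin. Glutamine synthetase and glutamate synthase then move the ammonium into amino acids. In leaves, the plastid glutamine synthetase and the ferredoxin-dependent glutamate synthase also recapture the ammonium that photorespiration releases, and many genes of the pathway are induced by nitrate.

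The labelled tissues were checked first. The summed level of 8 leaf markers (photosystem, antenna and Calvin cycle genes) ranged over 106-195 NEU on the callus microarrays, 4605-5593 NEU on the inflorescence microarrays and 9953-10404 NEU on the leaf microarrays. An NEU, or normalized expression unit, is the mean signal of the 2 channels divided by the summed signal of all gene probes and multiplied by 1000000. The 7 root markers summed to 1274 and 1320 NEU on the root microarrays, against 227 and 341 NEU on the leaf microarrays. Their sums were 388 and 268 NEU in callus and 249 and 223 NEU in inflorescence. PHT1;1 alone held 1054 and 1019 NEU of the root sums, and the root markers SHR and RHD6 were higher in callus than in root. Among markers well above background on both silique/inflorescence microarrays, 5 of 5 silique and seed markers were higher and 4 of 6 flower markers lower in silique. Of the 6 flower markers 1, SEP1, was higher (log2 1.15). Of all 14954 probes tested with that filter 11608 were called, 53.0% of them higher, so these counts are a weak check. No marker list was at 0 in any tissue.

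One microarray stood apart and went against its label. On the library labelled root self-self microarray 1 the leaf markers summed to 4283 NEU, against 234 NEU on root microarray 2. By channel the sums were 6166 NEU in green and 2252 NEU in red on root microarray 1, and 232 NEU in green and 235 NEU in red on root microarray 2. A smaller excess of green over red was seen on leaf microarray 1 (12323.5 and 7482.7 NEU), leaf microarray 2 (11457 and 9333 NEU) and inflorescence microarray 2 (5421 and 3763 NEU). More gene probes were saturated in red than in green on these 3 (45 and 8, 28 and 15, 98 and 11). The same held for root microarrays 1 (39 and 6) and 2 (64 and 3). On leaf microarray 1 the markers RBCS1A and PSAF had nearly equal levels, 2016.7 and 2016.6 NEU. The part of saturation in the leaf marker sums was not tested. The label gives root RNA for both channels of root microarray 1. Yet its log2 red/green signal correlated with the root/leaf ratio of the paired microarrays at r = 0.62 across 21500 probes. The other 7 self-self microarrays gave correlations between 0.0020 and 0.12. Genes are not independent replicates, so this is a description, and which RNA the channels of root microarray 1 held is in doubt. GLU1 and GLN2 were both affected, with more signal in green than in red, as the plot of red over green signal shows. Contrasts with root on the self-self microarrays are therefore also given without this microarray where a call changed or a fold moved by over 1.5 times. Root then rests on root microarray 2 alone, so only the sizes are given.

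**Figure D1:**
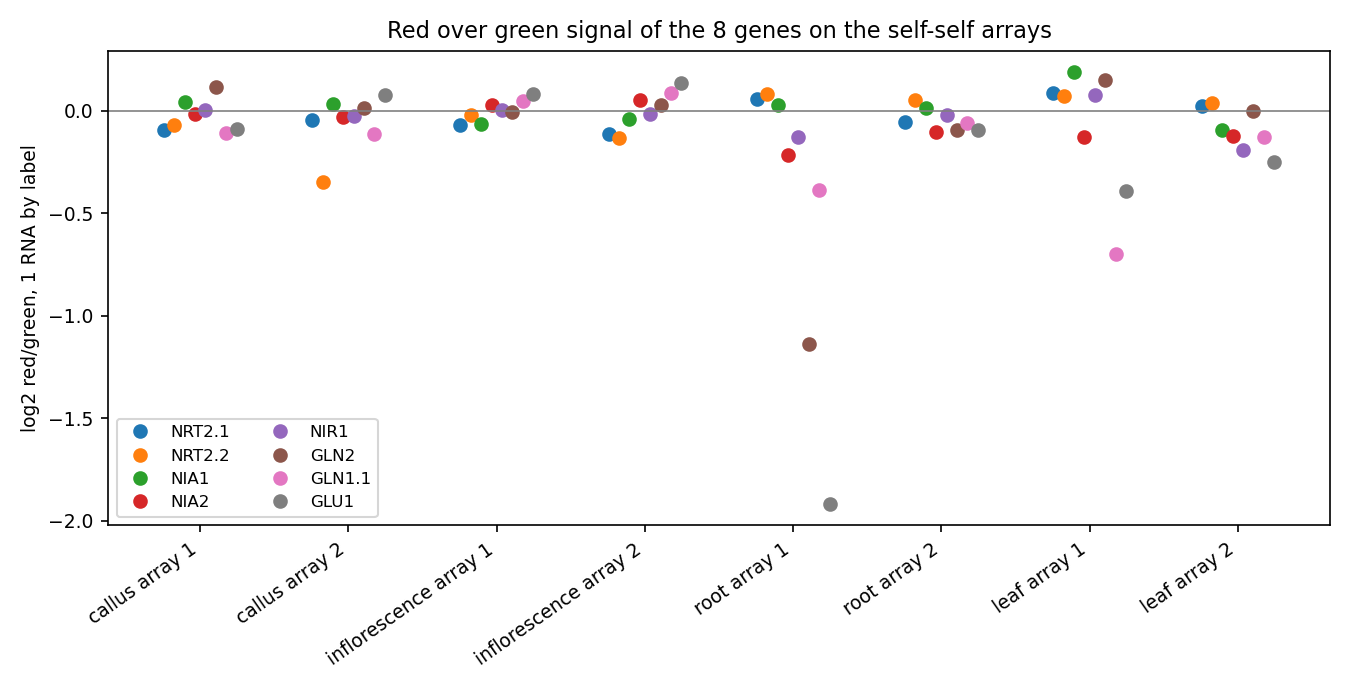
Log2 red/green signal of the 8 genes (vertical axis) on each of the 8 self-self microarrays (horizontal axis), 1 point per gene. GLU1 at -1.92 and GLN2 at -1.14 on root array 1 lie below every other point, and the next lowest is GLN1.1 at -0.70 on leaf array 1.

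The root/leaf comparison asked how far each gene differed between the organ that takes up nitrate and the main photosynthetic organ. NRT2.1 and GLN1.1 were higher in root, and the 2 nitrate reductases, NIR1, GLN2, GLU1 and NRT2.2 were lower in root. The range was wide, with NRT2.1 8.42-fold higher and GLU1 36.0-fold lower in root. All 8 genes passed an adjusted p of 0.05 in limma, 2 higher and 6 lower. This threshold was passed by 69.6% of the 21490 probes tested, 38.7% higher and 30.8% lower, so a call by itself is common here and the sizes carry the description. The median of the 8 log2 ratios was -1.02, beside 0.03 for all probes. In RNA from a whole organ, fewer cells of a type and less RNA per cell cannot be told apart.

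NRT2.1, the main high-affinity nitrate transporter of the root, gave processed signals of 4054 and 3507 in the root channel and 476 and 421 in the leaf channel. Its log2 root/leaf ratios were 3.09 and 3.06 on the 2 microarrays, and the fit gave 3.07 ± 0.042 (SE, adjusted p = 2.5e-09). The neighbouring NRT2.2, a close homologue that is the next protein-coding gene on chromosome 1, behaved differently. Its root signals were 194 and 203 and its leaf signals 240 and 236, a log2 ratio of -0.26 ± 0.063 (adjusted p = 0.0057). That difference of 1.2-fold was not called without replicate 1 (adjusted p = 0.076). Whether each probe also binds transcripts of the other gene was not tested.

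The reductases were all lower in root, by unequal amounts. NIA2, usually described as the major nitrate reductase, gave 13190 and 12102 in root and 109676 and 95602 in leaf, 8.1-fold lower in root (log2 -3.02 ± 0.045, adjusted p = 2.5e-09). NIA1, the other nitrate reductase, gave 8352 and 7851 in root and 23709 and 22066 in leaf, 2.82-fold lower (log2 -1.5 ± 0.061, adjusted p = 1.4e-07). NIR1, which reduces nitrite in the plastid, differed least of the 3, with 26278 and 24763 in root and 38986 and 35399 in leaf. Its log2 ratio of -0.54 ± 0.058 (adjusted p = 4.7e-05) is a 1.46-fold lower signal in root.

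Among the ammonium-assimilating enzymes the plastid and cytosolic forms of glutamine synthetase ran in opposite directions. GLN2, the plastid form, gave 7396 and 6728 in root and 103485 and 87022 in leaf, 13.5-fold lower in root (log2 -3.75 ± 0.20, adjusted p = 5.6e-07). GLN1.1, a cytosolic form, gave 5885 and 5855 in root and 2156 and 1986 in leaf, 2.84-fold higher in root (log2 1.5 ± 0.12, adjusted p = 8.2e-06). GLU1, the ferredoxin-dependent glutamate synthase that is abundant in leaves, had the lowest ratio of the 8. Its signals were 439 and 501 in root and 17005 and 16776 in leaf, a log2 ratio of -5.17 ± 0.34 (adjusted p = 2.3e-06). Its 2 ratios, -5.28 and -5.07, lay closer together than this SE, because root self-self microarray 1 enters the shared error. Without that microarray the SE was 0.073 and the ratio was unchanged.

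**Figure D2:**
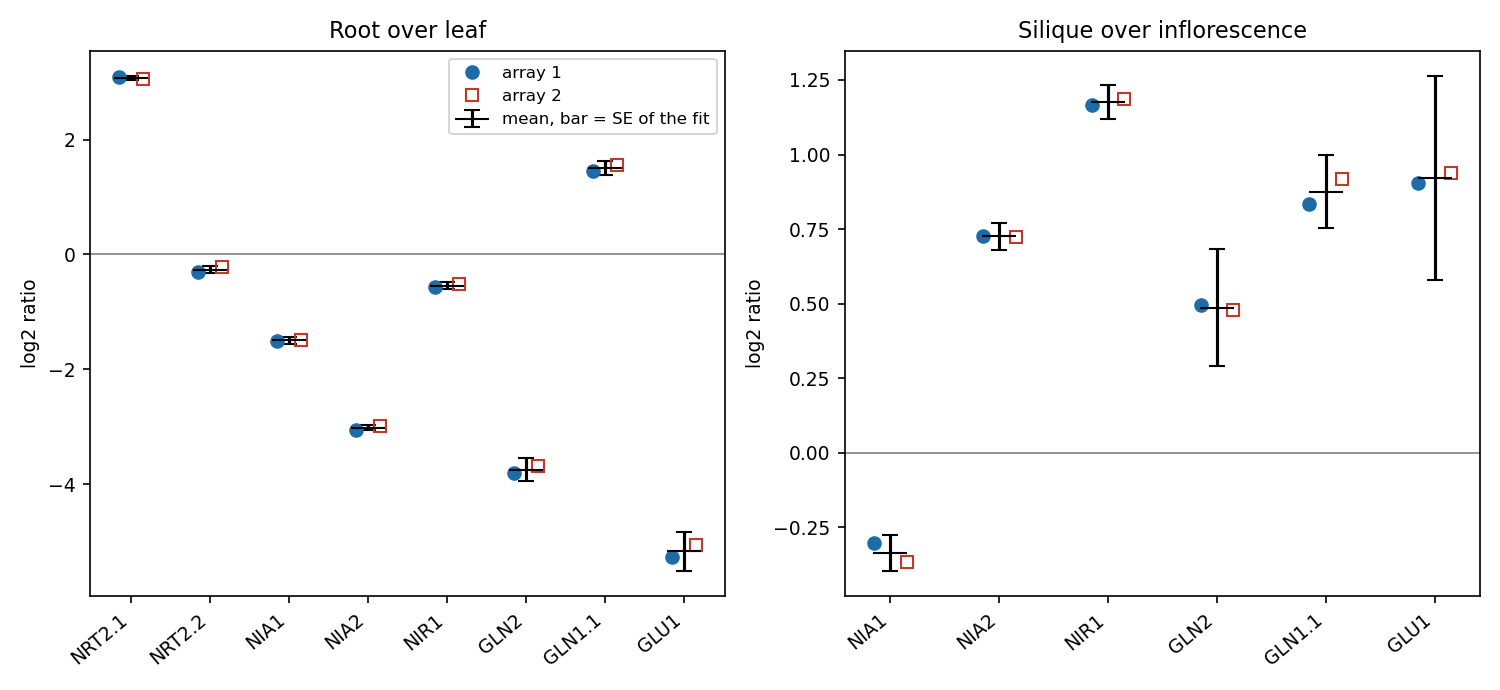
Log2 ratios on the paired microarrays, root over leaf on the left and silique over inflorescence on the right, for each gene on the horizontal axis. Circles and squares are the 2 microarrays and the black bars the mean with its SE from the limma fit; both microarrays lie on the same side of 0 for every gene drawn, and NRT2.1 and NRT2.2 are left out on the right because they were not well above background there.

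The self-self microarrays gave the level of each gene in callus, inflorescence, root and leaf. Levels differed most for GLU1, whose highest tissue mean was 237 times its lowest, then for GLN2 (109 times), NRT2.1 (34.5 times), NIA1 (27.3 times) and NIA2 (14.8 times). The GLU1 value rests on low callus signals of 58.6 to 63.4, so its size is uncertain. The NRT2.1 value is uncertain too, with callus signals of 134 and 125 on microarray 1 and 62.6 and 60.7 on microarray 2. GLN1.1 and NIR1 spanned 4.12 and 2.85 times, and NRT2.2 only 1.8 times. Levels of different probes were not compared. On the 8 self-self microarrays every one of the 8 genes exceeded background clearly in red and in green.

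NRT2.1 was highest in root. It measured 1.81 and 0.846 NEU in callus, 2.52 and 2.28 NEU in inflorescence, 42.4 and 49.2 NEU in root and 4.996 and 3.204 NEU in leaf. Only the step between root and leaf, the next tissue, passed the test (log2 root minus leaf 3.51 ± 0.40, adjusted p = 0.0015). Inflorescence and leaf (adjusted p = 0.19) and callus and inflorescence (adjusted p = 0.12) did not differ beyond their spread, although callus was lower than leaf by a log2 difference of -1.69 (adjusted p = 0.013), a call that was lost under quantile normalization (adjusted p = 0.067) and without leaf replicate 1 (adjusted p = 0.062).

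NRT2.2 measured 1.58 and 2.37 NEU in callus, 2.78 and 1.56 NEU in inflorescence, 4.61 and 2.43 NEU in root and 3.85 and 3.27 NEU in leaf. The ranges of 3 of the 6 tissue pairs did not overlap, with callus below root and below leaf and inflorescence below leaf, but none of the 6 contrasts between tissues passed the test (adjusted p between 0.14 and 0.90). The log2 root minus leaf difference was -0.086 ± 0.44, so a change of the size seen for NRT2.1 lay far outside its error while a smaller one was not resolved.

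The nitrate reductases were high in callus and leaf and low in inflorescence. NIA1 measured 638 and 585 NEU in callus, 21.5 and 23.3 NEU in inflorescence, 92.3 and 88.4 NEU in root and 290 and 258 NEU in leaf. Callus exceeded leaf 2.23-fold (log2 1.16 ± 0.14, adjusted p = 0.00084). Root was below leaf (log2 -1.60, adjusted p = 0.00062) and inflorescence below root (log2 -2.01, adjusted p = 0.00014), so each step in the order of the 4 tissues passed the test. Between the extremes, NIA1 was 27.3-fold higher in callus than in inflorescence (log2 4.77).

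NIA2 had a similar profile, with its highest mean in leaf. Its levels were 869 and 888 NEU in callus, 67.9 and 79.5 NEU in inflorescence, 134 and 137 NEU in root and 1157 and 1032 NEU in leaf. Callus and leaf were not distinguished (log2 callus minus leaf -0.32 ± 0.14, adjusted p = 0.10). Callus was 6.50-fold above root (log2 2.7, adjusted p = 7.6e-05), and inflorescence was 1.84-fold below root (log2 -0.88, adjusted p = 0.0031).

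NIR1 was flatter than either nitrate reductase. It measured 172 and 152 NEU in callus, 151 and 140 NEU in inflorescence, 313 and 253 NEU in root and 519 and 309 NEU in leaf. The 2 leaf microarrays differed from each other more than root differed from the lower of them, and root and leaf were not called (log2 root minus leaf -0.51 ± 0.26, adjusted p = 0.18), although the value was close to that of the paired microarrays. NIR1 was lower than in leaf in callus (log2 -1.31, adjusted p = 0.0063) and in inflorescence (log2 -1.46, adjusted p = 0.0064). Its lower level in callus than in root (log2 -0.80, adjusted p = 0.040) was not called with root microarray 2 alone (log2 -0.65). Inflorescence against root (log2 -0.95, adjusted p = 0.023) was not called with root microarray 2 alone either (log2 -0.80).

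**Figure D3:**
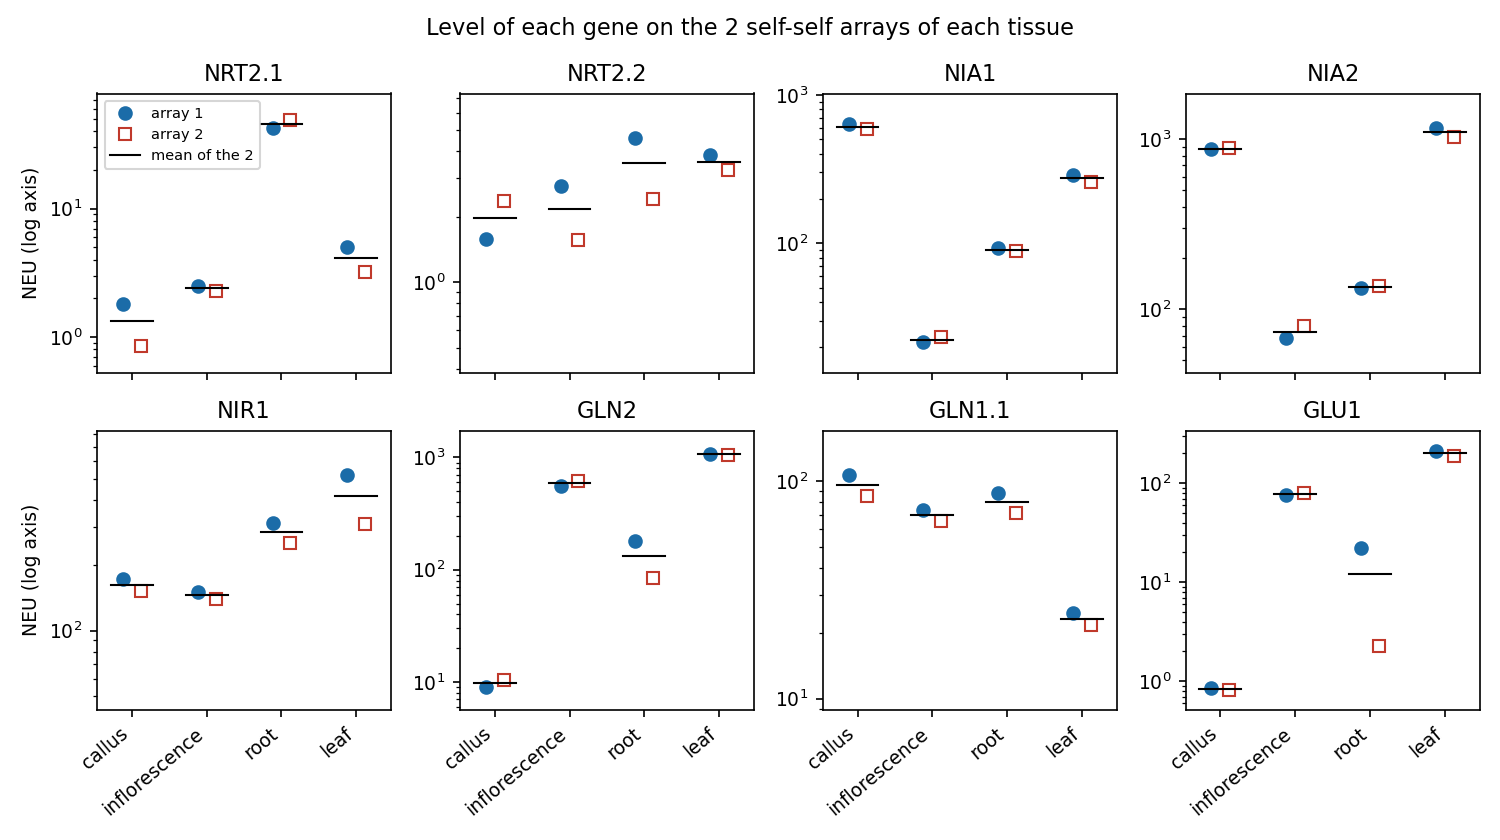
Levels in NEU (vertical log axes) of the 8 genes on the 2 self-self microarrays of callus, inflorescence, root and leaf, with the mean as a black line. NRT2.1 is highest in root, NIA1 in callus, and GLN2 and GLU1 in leaf; the 2 root points of GLU1, 22.04 and 2.28 NEU, lie farthest apart.

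GLN2 was high in leaf and inflorescence and low in callus. Its levels were 9.07 and 10.5 NEU in callus, 561 and 611 NEU in inflorescence, 181 and 84.7 NEU in root and 1082 and 1050 NEU in leaf. Callus was 109-fold below leaf (log2 -6.77 ± 0.33, adjusted p = 3.5e-05) and 60.0-fold below inflorescence (log2 -5.91, adjusted p = 3.8e-05). Inflorescence against leaf gave a log2 difference of -0.86 (adjusted p = 0.085), which was called with the red channel only (adjusted p = 0.014) and among slides of 1 barcode series (adjusted p = 0.017). Root was 8.60-fold below leaf with both root microarrays (log2 -3.10, adjusted p = 0.0012) and 12.6-fold below with root microarray 2 alone (log2 -3.65).

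GLU1 followed the same order more steeply. It measured 0.858 and 0.826 NEU in callus, 75.4 and 78.8 NEU in inflorescence, 22.04 and 2.28 NEU in root and 212 and 188 NEU in leaf. Callus was 237-fold below leaf (log2 -7.89 ± 0.92, adjusted p = 0.00077) and 91.5-fold below inflorescence (log2 -6.52, adjusted p = 0.0018). Under alternatives these log2 differences ranged from -8.01 to -6.34 against leaf and from -6.59 to -5.04 against inflorescence. GLU1 signals in callus were low, at 58.6 to 63.4. Its root level depended on the microarray used: root was 28.1-fold below leaf with both (log2 -4.82, adjusted p = 0.0097) and 87.5-fold below with root microarray 2 alone (log2 -6.45). On root microarray 1 the green signal was 2040 and the red signal 540, against 136 and 128 on root microarray 2. Inflorescence was 10.9-fold above root with both (log2 3.44, adjusted p = 0.022) and 33.8-fold above with root microarray 2 alone (log2 5.08). Callus was 8.42-fold below root with both (log2 -3.07, adjusted p = 0.031) and 2.71-fold below with root microarray 2 alone (log2 -1.44). The callus against root call was lost under quantile normalization (adjusted p = 0.079), normexp (0.091), a slide series block (0.068) and without either callus microarray (0.10 and 0.11), and the inflorescence against root call with the green channel only (0.057), a slide series block (0.055) and without either inflorescence microarray (0.083 and 0.090). Inflorescence and leaf were not distinguished (log2 -1.37, adjusted p = 0.28), and were called (log2 -1.46, adjusted p = 0.0062) when only slides of 1 barcode series were fitted, which left out both root microarrays and leaf microarray 2.

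GLN1.1 was lowest in leaf. It measured 107 and 85.2 NEU in callus, 73.6 and 65.5 NEU in inflorescence, 88.3 and 71.5 NEU in root and 24.7 and 21.8 NEU in leaf. Every microarray of the other 3 tissues exceeded both leaf microarrays, by log2 2.04 in callus (adjusted p = 0.00032), 1.58 in inflorescence (adjusted p = 0.0017) and 1.77 in root (adjusted p = 0.0012). Root overlapped with both callus and inflorescence, and callus against root (log2 0.26, adjusted p = 0.28), inflorescence against root (log2 -0.20, adjusted p = 0.43) and callus against inflorescence (log2 0.46, adjusted p = 0.11) did not pass the test. Thus of the 2 glutamine synthetases GLN2 was lower and GLN1.1 higher than leaf in both callus and root.

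Counted over the self-self contrasts, 6 of the 8 genes were called for root against leaf, where 32% of all probes were called, and 6 of 8 for callus against leaf (52.5% of probes), callus against root (51.3%) and inflorescence against root (48.6%). For inflorescence against leaf 4 of 8 were called (38.7% of probes), and for callus against inflorescence 4 of 8 (37%). The median log2 difference of all probes was 0.20 for root against leaf, -0.21 for callus against leaf and -0.27 for callus against root, so small differences in these contrasts depend on the scaling; 37.6% of the calls for callus against root were upward with NEU and 53.7% with quantile normalization. Callus and inflorescence microarrays were extracted from their scans on 1 day and root and leaf microarrays on another, so that day and tissue cannot be told apart in the 4 contrasts that cross them. Callus and inflorescence slides were also all of 1 barcode series and both root slides of another, for root read from barcodes given in a short form, so slide series and tissue cannot be told apart in the contrasts of callus or inflorescence with root.

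The silique/inflorescence comparison followed the pathway from the flower to the young fruit, 24 to 48 hours after fertilization. NIR1 rose most, and NIA2, GLN1.1 and GLU1 were also higher in silique, while NIA1 was lower. In all 5 of 8 genes were called, 4 higher and 1 lower, where 65.5% of the 21498 probes tested were called, 32.9% higher and 32.6% lower. Over the 6 genes well above background on both microarrays the median log2 ratio was 0.80, beside 0.04 for all probes that passed the same filter. With that filter 6 of 6 were called, where 11608 of the 14954 probes tested were called, so these calls are common too. These 2 microarrays were dimmer than the rest, with 70.5% and 76.0% of gene probes well above background in red, against 97.4% to 99.8% on the other 10.

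NIR1 gave 34315 and 39674 in silique and 15282 and 17442 in inflorescence, 2.26-fold higher in silique (log2 1.18 ± 0.058, adjusted p = 5.0e-07). The 2 nitrate reductases went apart. NIA2 gave 8568 and 5550 in silique and 5177 and 3358 in inflorescence, with log2 ratios of 0.73 and 0.72 on the 2 microarrays (fit 0.73 ± 0.045, adjusted p = 1.9e-06). NIA1 gave 1476 and 1603 in silique and 1822 and 2067 in inflorescence, 1.26-fold lower in silique (log2 -0.33 ± 0.061, adjusted p = 0.0013).

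GLN1.1 gave 7785 and 5021 in silique and 4369 and 2657 in inflorescence, 1.83-fold higher (log2 0.88 ± 0.12, adjusted p = 0.00029). GLU1 gave 11598 and 9139 in silique and 6190 and 4771 in inflorescence, 1.89-fold higher (log2 0.92 ± 0.34, adjusted p = 0.043), and GLN2 gave 98043 and 103114 in silique and 69607 and 73934 in inflorescence (log2 0.49 ± 0.20, adjusted p = 0.059). For GLU1 and GLN2 the ratios of the 2 microarrays nearly coincided, at 0.91 and 0.94 and at 0.49 and 0.48. With root self-self microarray 1 left out of the shared error, an alternative added after the data were seen, both were called (adjusted p = 2.9e-05 for GLU1 and 0.00014 for GLN2). The GLU1 call was lost with the slide series as a random block (adjusted p = 0.14), without replicate 1 (0.21) and without replicate 2 (0.22). Of the 6 leaf markers tested and well above background on both microarrays, 2 were called, both higher in silique, with a median log2 ratio of 0.77 over the 6; their part in the GLU1 and GLN2 values was not tested.

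NRT2.1 and NRT2.2 were not well above background in silique or inflorescence on either microarray, with processed signals of 49.98 to 82.9 in silique and 22.8 to 78.5 in inflorescence over the 2 genes. No ratio is given for them.

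The other genes of the pathway were set beside these 8 in the root/leaf comparison, from lists of related functions. The counts of each list stand beside the 38.7% of all probes called higher and the 30.8% called lower in root, and the counts for nitrate transport, glutamate dehydrogenase with asparagine and aspartate, and nitrate signalling are not read as a result about those lists. Of 14 other nitrate transport genes 8 were higher and 4 lower in root, with a median log2 ratio of 0.52. NRT1.5 (AT1G32450), which loads nitrate into the xylem, had the highest ratio, 5.28 and 5.55 on the 2 microarrays (log2 5.41, 42.6-fold), followed by NRT2.6 (AT3G45060, log2 3.79). NRT1.7 (AT1G69870), which loads nitrate into the phloem of leaves, had the lowest (log2 -3.44), followed by the vacuolar transporter NRT2.7 (AT5G14570, log2 -1.94). NAR2.1 (AT5G50200), the partner protein that NRT2.1 needs for transport, was chosen for mention after its values were seen; it was 7.62-fold higher in root (log2 2.93), against 8.42-fold for NRT2.1.

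Of the ammonium transporters, AMT1;3 (AT3G24300) had the highest ratio, log2 3.36 from microarray 1 alone, since its spot on microarray 2, with a ratio of 0.50, was flagged as an outlier and dropped; with that spot kept the mean was 1.93. AMT1;2 (AT1G64780), which like AMT1;3 takes ammonium into the root, had log2 3.29. AMT1;4 (AT4G28700) was lowest at -0.78, and AMT1;1 (AT4G13510) at -0.11 was not called (adjusted p = 0.14). In all 3 of the 6 were higher and 1 lower in root.

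Of the 6 remaining glutamine and glutamate synthesis genes 5 were higher in root and 0 lower. GLU2 (AT2G41220), the second ferredoxin-dependent glutamate synthase, was 4.36-fold higher in root (log2 2.12), the opposite direction to GLU1. Cytosolic GLN1;3 (AT3G17820) was 3.90-fold higher (log2 1.96), GLN1;5 (AT1G48470) had log2 0.53, and GLN1;4 (AT5G16570) gave -0.054 and was not called (adjusted p = 0.31). GLN2 and GLU1 were thus the only 2 of the 9 glutamine and glutamate synthesis genes, GLN1.1 included, that were called lower in root.

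The reductant supply genes were listed beforehand as root-type and leaf-type, with earlier results of these data known. Their directions by list are therefore a description and not a finding. All 8 genes of the root-type supply (root ferredoxin and its reductases, and the oxidative pentose phosphate enzymes) were higher in root, by a median log2 of 1.38, led by RFNR2 (AT1G30510, log2 2.29) and the ferredoxin FD3 (AT2G27510, log2 1.97), with G6PD2 (AT5G13110, log2 1.23) and PGD2 (AT3G02360, log2 1.15) lowest. All 4 leaf-type genes were lower in root, by a median log2 of -5.36, with LFNR2 (AT1G20020) at -6.37, LFNR1 (AT5G66190) at -6.11, FD2 (AT1G60950) at -4.60 and FD1 (AT1G10960) at -4.12. The leaf spot of FD2 was saturated on microarray 2, and microarray 1 alone gave -4.74. These 4 genes encode the ferredoxins and ferredoxin-NADP reductases of photosynthetic electron transport.

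All 12 photorespiration genes were lower in root, with a median log2 of -3.61. The largest differences were for the aminotransferase GGT1 (AT1G23310, log2 -5.46) and the serine hydroxymethyltransferase SHM1 (AT4G37930, log2 -5.44), and the smallest for the glycerate kinase GLYK (AT1G80380, log2 -1.28) and the plastid transporter DiT2.1 (AT5G64290, log2 -1.25). GLN2 and GLU1, at -3.75 and -5.17, fell within the range of these genes. All 8 leaf markers were lower in root too, with a median log2 of -4.98.

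Cofactor synthesis, which provides the siroheme of nitrite reductase and the molybdenum cofactor of nitrate reductase, differed little. Of 8 genes 3 were higher and 4 lower in root, all between -0.79 and 0.51, with UPM1 (AT5G40850, log2 -0.79) and SIRB (AT1G50170, log2 -0.39) of siroheme synthesis lowest and CNX5 (AT5G55130, log2 0.51) and CNX3 (AT1G01290, log2 0.41) of molybdenum cofactor synthesis highest. Of 14 genes of glutamate dehydrogenase, asparagine and aspartate metabolism 6 were higher and 5 lower. The aspartate aminotransferases ASP2 (AT5G19550, log2 2.21) and ASP4 (AT1G62800, log2 1.91) were highest and the asparagine synthetases ASN2 (AT5G65010, log2 -2.96) and ASN1 (AT3G47340, log2 -2.06) lowest. Of 21 nitrate signalling genes 9 were higher and 6 lower, with the MADS-box factor ANR1 (AT2G14210, log2 3.02) and the bZIP factor TGA1 (AT5G65210, log2 2.94) highest and BT2 (AT3G48360, log2 -2.06) and NRG2 (AT3G60320, log2 -1.25) lowest.

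**Figure D4:**
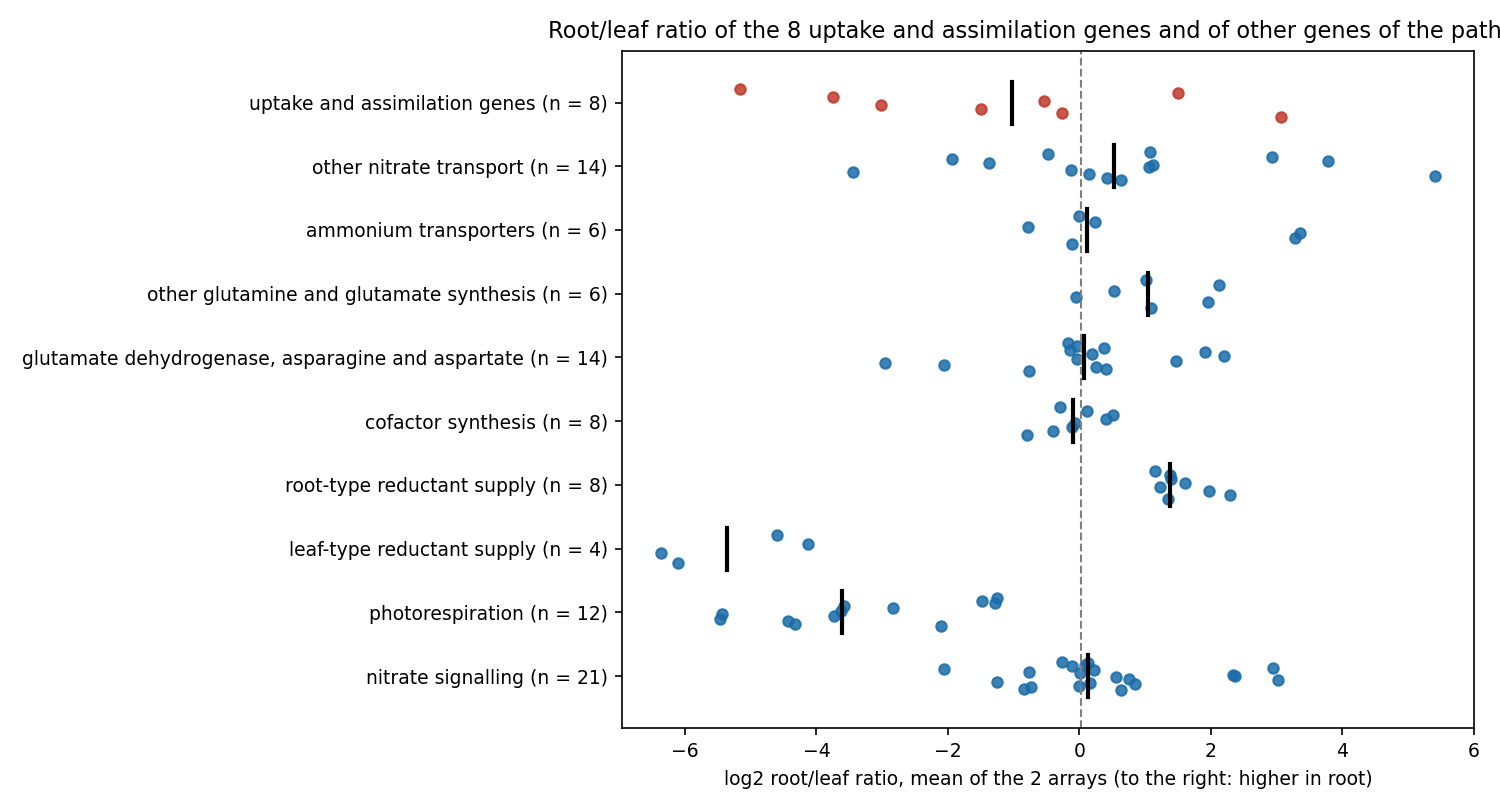
Log2 root/leaf ratio (horizontal axis, mean of the 2 paired microarrays) of the 8 genes, in red, and of the other genes of the pathway by list, in blue, 1 point per gene. AMT1;3 is drawn from microarray 1 alone. Black bars are list medians and the dashed line is the median of all gene probes, 0.03; all 12 photorespiration genes and all 4 leaf-type reductant genes lie left of it and all 8 root-type reductant genes right of it.

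In silique over inflorescence the same lists were mixed, and their counts stand beside 32.9% of all probes called higher and 32.6% called lower. Cofactor synthesis had 6 of 8 genes higher and 0 lower (median log2 0.33), photorespiration 4 of 12 higher, a share near that of all probes, and 0 lower (0.40), the leaf-type reductant genes 2 of 4 higher (1.01) and the root-type genes 4 higher and 2 lower of 8 (0.05). Nitrate transport had 4 higher and 7 lower of 14 genes, and 2 higher and 5 lower of the 8 that were well above background on both microarrays in both tissues. NRT1.6 (AT1G27080), which carries nitrate to the developing embryo, was singled out after its values were seen. Its signals were 1914 and 2068 in silique and 47.8 and 33.3 in inflorescence, the last not well above background. Its log2 ratio is therefore given for microarray 1 only (5.32). With the lowest signal well above background standing in on microarray 2, the mean ratio of the 2 microarrays was at least 41.2-fold.

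Similarity of profile was described by Pearson's r of log2 NEU over the 8 self-self microarrays, against the 18632 other probes that exceeded background clearly in red and green on each of them. The 8 points are 4 tissues measured in duplicate, so high values are common and no test is attached. Among the 8 genes, GLN2 and GLU1 were the most similar pair (r = 0.98), then NIA1 and NIA2 (r = 0.93), while NRT2.1 and NRT2.2 had r = 0.49. Closest to GLN2 over all probes were PSBX (AT2G06520) and ATPC1 (AT4G04640), both of photosynthesis, at r = 0.997 each, and closest to GLU1 were AT5G53490, described as a thylakoid lumenal protein, and OEP6 (AT3G63160), at r = 0.9995 and 0.999.

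NIA1 was closest to the factor MYB51 (AT1G18570, r = 0.996) and to HHO3 (AT1G25550, r = 0.99), which is on the nitrate signalling list. NIA2 was closest to TPS8 (AT1G70290, r = 0.99) and to AT2G39400, described as a phospholipase (r = 0.99), and NIR1 to PIP5K2 (AT1G77740, r = 0.98) and SAG21 (AT4G02380, r = 0.98). NRT2.1 was closest to AT1G08670 and AT5G05400 (r = 0.99 each), NRT2.2 to WAKL6 (AT1G16110, r = 0.97) and AT3G46860 (r = 0.96), and GLN1.1 to MTR4 (AT1G59760) and WNK8 (AT5G41990) at r = 0.99 each. Microarray-wide features that the 8 points share, such as root microarray 1, enter all of these values.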

How the data were processed

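Per the file headers, the authors' Agilent Feature Extraction software (A.6.1.1, and A.7.1.1 for silique/inflorescence; 8.1 per the labels) wrote red and green processed intensity, background-subtracted and dye-normalized, and their log10 ratio, which was converted to log2. The deposited log10 value table held the same ratios and was not used separately. The genome build is not given in the sources used here, so no coordinates are given, and 21191 of 21500 gene identifiers matched the RefSeq table that supplied names.

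NEU was computed per microarray as described in the report. Log2 ratios (12 microarrays) and log2 NEU (8 self-self microarrays) were fitted by tissue group with limma 3.58.1 in R 4.3.3 (eBayes with trend), leaving out spots flagged as outliers and keeping saturated ones, with Benjamini-Hochberg adjustment over all gene probes of a contrast at a threshold of 0.05. The fits were tested on simulated data. Alternatives changed background correction, scaling, channel, filters, blocks and microarrays. Pathway genes named were the 2 highest and 2 lowest root/leaf ratios of each list. The genes and lists were chosen with earlier results of these data known. Affymetrix and MPSS data were not analysed here, and no sequences were used. The number of microarrays limits the precision.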

Additional observations from a re-analysis of the deposited data

Results flagged for a closer look

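On the microarray labelled root self-self 1, whose label gives the same RNA for red and green, GLU1 had a log2 red/green signal of -1.92 (red 540, green 2040), outside the range of -0.39 to 0.13 on the other 7 self-self microarrays. GLN2 on the same microarray had -1.14 (red 6634, green 14604), outside the range of -0.09 to 0.15 on the others. These channel differences belong to no comparison between tissues and were flagged for that reason; their cause was not tested, and which RNA the channels held is in doubt.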

How the results depend on the processing

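Of 934 log2 differences of the 8 genes under alternatives, 885 kept their direction and their side of the threshold, 31 kept the direction but lost the call, 11 gained one and 7 changed sign. All 7 sign changes were of NRT2.2 in contrasts that were never called: for callus against inflorescence 0.25 (quantile), 0.096 (normexp), 0.19 (without callus replicate 1) and 0.31 (without inflorescence replicate 1, against -0.52 without inflorescence replicate 2), and for root against leaf 0.031 (within 1 slide series, and without leaf replicate 1) and 0.38 (without root replicate 2, against -0.55 without root replicate 1). AMT1;1 also changed sign in root/leaf, to 0.047, with a dye term taken from self-self data. Within 1 slide series, root against leaf had 2 root microarrays and 1 leaf microarray, and 0 probes and 0 of the 8 genes were called by limma (lowest adjusted p = 0.096), with 5761 probes and 5 of the 8 genes at an unadjusted p under 0.05; the grouping of the root slides in that series was inferred from short barcodes. GLU1 in silique/inflorescence was not called with the slide series as a random block (adjusted p = 0.14), without replicate 1 (0.21) or without replicate 2 (0.22), and GLN2 there was called with normexp and loess (0.039), only probes well above background (0.045), only the 4 paired microarrays (0.0039) and a dye term (0.042). GLU1 for callus against root was not called under quantile (0.079), normexp (0.091) or the slide block (0.068), and GLU1 for inflorescence against root not with green only (0.057) or the slide block (0.055). NIR1 for callus against root was not called under 75th percentile scaling (0.068), with red only (0.057) or with no variance trend (0.051).

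Leaving out 1 microarray at a time, the probes called ranged over 13008 to 14824 (root/leaf), 12435 to 14220 (silique/inflorescence), 5002 to 6614 (root against leaf), 8493 to 10318 (callus against leaf), 7803 to 9863 (callus against root), 3690 to 7288 (inflorescence against leaf), 6271 to 9577 (inflorescence against root) and 5464 to 6682 (callus against inflorescence). The lowest counts for inflorescence against leaf were 4775 without inflorescence replicate 1 and 3690 without replicate 2, and those for inflorescence against root 6809 and 6271. Calls for callus against root were lost without either callus microarray for NIR1 and GLU1, and without either root microarray for NIR1. Calls for inflorescence against root were lost without either inflorescence microarray for NIR1 and GLU1, and without root replicate 1 for NIR1. The NRT2.1 call for callus against leaf was lost without leaf replicate 1. On the paired microarrays calls were lost without replicate 1 for NRT2.2 (root/leaf) and without either replicate for GLU1 (silique/inflorescence). NIR1 was gained for root against leaf without leaf replicate 2 (log2 -0.88) and NRT2.1 for callus against inflorescence without callus replicate 1 (log2 -1.50). GLN2 was gained for silique/inflorescence without root replicate 1 (log2 0.49). With a replicate block, 14751 probes were called for root/leaf, 13895 for silique/inflorescence and 6784 for root against leaf, and the only call among the 8 genes that changed was GLN1.1 for callus against inflorescence (adjusted p = 0.039); same-numbered microarrays correlated at -0.19 to 0.17 in their deviations, so the numbers do not pair them. Levels in NEU moved by more than the difference between duplicates in 25 of 128 cases. Low signal on the silique/inflorescence microarrays limits NRT2.1 and NRT2.2 there.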
